A study of Mus musculus with 6 samples.

Results

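Named pseudogenes, the rows of the deposited table whose symbol ends in -ps or in -ps and a number, were described across the libraries of the study. The rule took 153 of the 14868 genes in the table by symbol alone, leaving out Mid1-ps1, and the parent of each was taken as the gene named by the text before -ps. RNA came from cultures started with naïve CD4+ T cells, helper T cells that have not met antigen. The cells were from WT mice (3 libraries) and Ikzf4-/- mice (3 libraries), both labelled with a C57BL/6J strain background. Ikzf4 encodes Eos, a zinc finger transcription factor of the Ikaros family. All cells were activated for 72 h on plate-bound anti-CD3 (5 µg/mL) and anti-CD28 (2 µg/mL) with 10 ng/mL IL-4 and 10 µg/mL of an antibody against interferon gamma, which favours T helper 2 (Th2) differentiation. The labels do not say which part of Ikzf4 is deleted, how the Ikzf4-/- line was made or whether each library came from its own mouse, so p-values measure the spread between these libraries, which may be technical.

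A pseudogene is a genomic copy of a gene that is held not to make the gene's normal product. Processed pseudogenes arise when a spliced mRNA is reverse transcribed and inserted at another place, so they lack introns and can be nearly identical to the parent's mRNA. Unprocessed pseudogenes arise by duplication, and a unitary pseudogene is a gene that lost its function with no working copy left in that species. Genes with abundant, short mRNAs, those of ribosomal proteins above all, have many processed copies. A short read from a parent's mRNA can match such a copy as well as the parent.

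The values are normalized read counts. Read as whole multiples of 1 step per library, the estimated depth was 34701390 to 40604346 reads per library. Ikzf4 itself was at 483 to 756 in WT and 10.5 to 38.2 in Ikzf4-/- libraries, as labelled. The 6 helper T cell markers summed to 68464 to 71661 in each library, whereas 5 of 7 myeloid markers, including Lyz2, had no row in the table. The other 2 myeloid markers summed to 70.3 to 136 in WT and 97.4 to 105 in Ikzf4-/- libraries. Of 6 B cell markers, 2 had a row, with sums of 51.1 to 83.6 in WT and 58.6 to 90.4 in Ikzf4-/- libraries. The CD8 T cell markers summed to 385 to 682 in WT and 429 to 658 in Ikzf4-/- libraries. Among them Cd8a varied widely between replicates, from 57.5 to 208 in WT and from 33.3 to 161 in Ikzf4-/- libraries.

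The members sat on 20 chromosomes. Of the 153, 147 were annotated as some kind of pseudogene in GENCODE M21, 117 of them as processed pseudogenes. The label did not match the annotation for 6 members, of which Rpl10-ps3, Rps12-ps3, Rpl9-ps6, Nutf2-ps1 and Ftl1-ps1 were annotated as protein coding and Tmem250-ps as a long intergenic RNA. Levels were low, with a median of 40.5 normalized reads against 689 over all 14864 genes tested, and 92 members (60.1%) had a mean under 50, against 22.0% of all genes tested. All 153 passed the filter on low values (mean value of 10 or more).

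Both pseudogenes that changed, Rpl34-ps1 and Tgif2-ps2, are near-copies of a parent mRNA, and their sequences are shown so that the bases in which each differs from its parent can be seen. Rpl34-ps1 (ENSMUSG00000068396) is a processed pseudogene of 354 bases with 1 exon at chr6:71124610-71124963, plus strand, GRCm38. It spans the same length as the coding sequence of Rpl34, a protein of the large ribosomal subunit, on the minus strand of chromosome 3 (130726831 to 130730398). The transcripts of GENCODE M21 gave the following for bases 105 to 354, 5′ to 3′, with the differing bases in capitals.
Rpl34-ps1: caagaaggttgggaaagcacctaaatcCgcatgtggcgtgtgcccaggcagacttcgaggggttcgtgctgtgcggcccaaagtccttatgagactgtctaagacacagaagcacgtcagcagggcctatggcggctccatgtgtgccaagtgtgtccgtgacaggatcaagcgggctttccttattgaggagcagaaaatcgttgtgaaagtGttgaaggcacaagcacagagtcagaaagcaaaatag
Rpl34 coding sequence, the same bases: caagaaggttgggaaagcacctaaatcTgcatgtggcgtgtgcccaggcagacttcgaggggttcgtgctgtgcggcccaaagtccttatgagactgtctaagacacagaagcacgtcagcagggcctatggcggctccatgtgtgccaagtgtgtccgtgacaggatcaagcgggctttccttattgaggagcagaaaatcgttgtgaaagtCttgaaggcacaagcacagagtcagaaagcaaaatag
Over all 354 bases the sequences were 99.44% identical. There were 2 differences, T132C and C318G, counted from 1 at the first base of the start codon with the Rpl34 base first, and no gap. Of the stretches of 50 bases in the pseudogene, 28.5% covered either position, as did 53.7% of those of 100 bases. The rest of such stretches read the same in both.

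Rpl34-ps1 was far higher in Ikzf4-/- cells. WT libraries held 40.5, 30.6 and 48.5 normalized reads of it and Ikzf4-/- libraries 795.9, 1249 and 1172, a 26.9-fold difference of the means. The lowest Ikzf4-/- library lay far above the highest WT library. On the log2 scale the fitted difference was 4.71 with an SE of 0.21 (limma adjusted p = 1.34e-06). The call held in each of the 16 alternative settings, with log2 fold changes from 4.43 to 4.91 and an adjusted p of at most 8.40e-05.

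The parent moved the other way. Rpl34 stood at 19494, 18253 and 20580 normalized reads in WT and at 16027, 14203 and 13983 in Ikzf4-/- libraries, and the groups did not overlap. Its mean of 19442 ± 1164 in WT fell to 14738 ± 1122 in Ikzf4-/- libraries (SD, n = 3 each), or -0.40 as a fitted log2 fold change (SE 0.06, limma adjusted p = 0.0191). That call was lost without Ikzf4-/- replicate 2 (limma adjusted p = 0.0587) and without Ikzf4-/- replicate 3 (0.0869). By limma, Rpl34 was the only one called among the 38 ribosomal protein genes with a member here, and the next lowest of these had a log2 fold change of -0.18.

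Set side by side, the pseudogene gained 1033 normalized reads on average and the parent fell by 4704. Rpl34-ps1 was at 0.204% of Rpl34 in WT and 7.38% in Ikzf4-/- libraries. Their sum was 19482 ± 1173 in WT and 15810 ± 889 in Ikzf4-/- libraries (SD, n = 3 each), so the gain of the pseudogene was smaller than the fall of the parent. The log2 ratio of pseudogene to parent within a library differed by 5.11 between genotypes, higher in 3 of 3 Ikzf4-/- libraries than in any WT library (exact permutation p = 0.1, two-sided, the smallest that 3 against 3 libraries allow). The pair was examined because Rpl34-ps1 was called in these libraries, so the ratio is no separate evidence.

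**Figure D1:**
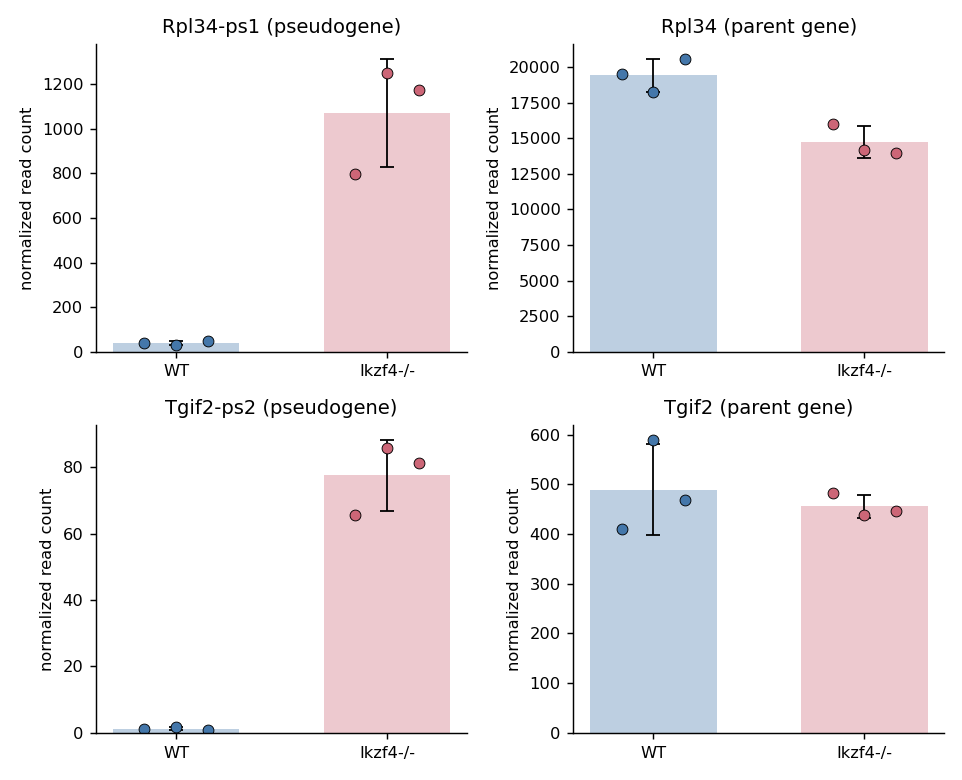
Normalized read count (vertical axes, linear from 0) of both called pseudogenes (left) and their parent genes (right) in WT and Ikzf4-/- libraries. Points are single libraries, bars the means and error bars the SD over 3 libraries. Rpl34-ps1 and Tgif2-ps2 are high in the Ikzf4-/- libraries, Rpl34 is lower there, and the libraries of Tgif2 overlap.

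Other annotated genes also carry this sequence. Stretches of 50 bases of Rpl34-ps1 occurred in the transcripts of 10 other genes, Rpl34 among them, and every stretch of that length occurred in at least 1 of them. Gm10154 held 254 of the 305 stretches, more than the 218 in Rpl34, but had no row in the table and could not be examined. Of the other copies, Gm10086 and Gm4705 had a row in the table. Gm10086 had 18.1, 14.4 and 15.5 in WT and 14.1, 15.7 and 37.2 in Ikzf4-/- libraries, and the groups overlapped (limma adjusted p = 0.735). Gm4705 had 6.39, 7.19 and 11.6 in WT and 17.1, 11.5 and 19.1 in Ikzf4-/- libraries, which overlapped by a narrow margin (limma adjusted p = 0.319). Neither was called.

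None of the genes tested around Rpl34-ps1 on chromosome 6 was called. Of the 21 other genes tested within 1000000 bases, 0 were called by limma, 1 had an unadjusted p under 0.05, and the median log2 fold change was 0.06. The nearest, Thnsl2, lies 3202 bases away and was at 0.39 on the log2 scale (limma adjusted p = 0.459). The 1 gene with an unadjusted p under 0.05 was Reep1, at -0.43 (limma adjusted p = 0.111). Around the parent on chromosome 3, 7 of 13 other genes within the same distance had an unadjusted p under 0.05, against 18.1% of all genes tested. They went both ways, with Casp6 (-0.53) and Pla2g12a (-0.51) among the lower and Lef1 (0.14) and Gar1 (0.12) among the higher. Of the 13, 1 was called, against 1.77% of all genes tested. This was Mcub, which encodes a subunit of the mitochondrial calcium channel, at -0.55 on the log2 scale (limma adjusted p = 0.0191). That call was lost without Ikzf4-/- replicate 3 (limma adjusted p = 0.0771). The window around the parent was added after the values were seen.

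Tgif2-ps2 (ENSMUSG00000045842), a transcribed processed pseudogene at chr17:40115358-40116326, plus strand, GRCm38, was the other member that changed. Tgif2 encodes a homeodomain repressor that acts on TGF-beta targets. The longest annotated transcript of the pseudogene, 735 bases, aligned over its whole length to the Tgif2 mRNA with 5 differences and no gap (99.32% identity). The pseudogene has 969 annotated exon bases in all, and those outside this transcript were not compared. Counted from the first base of the pseudogene transcript, with the Tgif2 base first, these were C12A, T102G, G562A, G592T and C652T, of which C12A and T102G fell in the part that matches Tgif2 coding sequence. The first 150 bases are given with the matching stretch of Tgif2 (chromosome 2, 156840007 to 156855570, plus strand), since they hold both, again with differing bases in capitals.
Tgif2-ps2: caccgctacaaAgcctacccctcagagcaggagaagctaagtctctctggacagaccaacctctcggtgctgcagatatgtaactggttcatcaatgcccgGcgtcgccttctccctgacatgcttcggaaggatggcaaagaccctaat
Tgif2 coding sequence, bases 118 to 267: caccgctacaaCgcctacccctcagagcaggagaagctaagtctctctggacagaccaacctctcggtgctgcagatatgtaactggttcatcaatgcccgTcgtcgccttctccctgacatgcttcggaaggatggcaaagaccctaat

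Tgif2-ps2 was close to absent in WT cells. Its WT values of 1.06, 1.80 and 0.971 correspond to 1, 2 and 1 reads, and its Ikzf4-/- values of 65.6, 85.8 and 81.4 to 65, 82 and 81 reads. From 4 reads against 228, the ratio after scaling was 59.7, with an exact 95% interval of 23.0 to 221 that covers counting error only. These reads are values divided by the step of each library, which was not accepted as giving recovered reads in Ikzf4-/- replicates 1 and 3, so the interval is approximate. The fitted log2 fold change was 5.12 (SE 0.39, limma adjusted p = 0.000273). Because the WT values are so small, this value follows the pseudocount, at 2.95 with a pseudocount of 10. With a WT mean of 1.28, the gene passed the filter on low values only through the Ikzf4-/- libraries, so it had to differ to be tested with that filter.

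The parent Tgif2 was not called. It stood at 411, 589 and 468 normalized reads in WT and at 482, 439 and 446 in Ikzf4-/- libraries, and the groups overlapped. Its log2 fold change was -0.09 (SE 0.13, limma adjusted p = 0.769). The log2 ratio of Tgif2-ps2 to Tgif2 differed by 5.21 between genotypes (exact permutation p = 0.1, two-sided, the smallest possible here). This too is no separate evidence, as Tgif2-ps2 was called in the same libraries. The pseudogene stood at 0.257% of Tgif2 in WT and 17.1% in Ikzf4-/- libraries. The sum of both was 490.7 ± 91.6 in WT and 533 ± 12.7 in Ikzf4-/- libraries (SD, n = 3 each), which overlapped.

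The table held few genes near Tgif2-ps2. Of 4 others within 1000000 bases, 0 were called by limma and 2 had an unadjusted p under 0.05, Gm42418 at a fitted log2 value of -0.57 (limma adjusted p = 0.134) and Cenpq at 0.14 (0.267). Within the same distance of the parent on chromosome 2, 8 of 41 genes had an unadjusted p under 0.05, against 18.1% of all genes tested. Of the 41, 3 were called, against 1.77% of all genes tested. They were Gm14230 (log2 fold change 1.10, limma adjusted p = 0.000663), Ndrg3 (-0.41, 0.0191) and Samhd1 (-0.35, 0.0319). Gm14230 is on the minus strand, and its annotated start lies 114 bases from that of Tgif2 on the plus strand. Gm14230 was called with any 1 library left out, and Ndrg3 and Samhd1 in 2 of 6 such fits each, lost without WT replicate 2 or any Ikzf4-/- library (adjusted p up to 0.0609 and 0.105). This window too was added after the values were seen. Of the other genes sharing stretches of 50 bases with Tgif2-ps2, 5430405H02Rik, which overlaps Tgif2, had a row, with 81.4 ± 23.6 in WT and 82.6 ± 18.0 in Ikzf4-/- libraries (SD, n = 3 each).

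The genome of either mouse line was not analysed here, and how the counting treated reads that match several places is not given in the sources used here. For both pseudogenes, reads that come from another copy and transcripts of the pseudogene itself cannot be told apart in these values. A base that differs between the mouse lines at 1 of the differing positions was not tested.

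The other 151 members did not pass the test. In all, 2 of 153 members were called, against a background of 1.77% of all genes tested. Both were higher in Ikzf4-/- cells, against 0.572% of all genes, and 0 were lower by limma, against 1.2%. Of these 2, Tgif2-ps2 passed the filter on low values only through the Ikzf4-/- libraries, so its direction was fixed by the filter. With a minimum of 10 in every library it was not tested, and 1 member was called, beside 270 of 13479 genes. At an unadjusted p under 0.05 there were 5 members, 4 higher and 1 lower, or 3.27% against 18.1% of all genes tested. The groups did not overlap for 19 members (12.4% against 23.1% of all genes tested), 11 of them higher (background 11.0%) and 8 lower (background 12.2%). The authors' deposited table also had 2 members at an adjusted p under 0.05, Rpl34-ps1 and Tgif2-ps2, of 103 with a value, against 6.34% of all genes with one. A fitted change of at least 2-fold was seen for 4 members against 2.48% of all genes tested. The median log2 fold change of the members was -0.04, against 0.00 over all genes tested, with 64 above and 89 below zero. The fits of these members were imprecise, with a median SE of 0.35 for uncalled members with a mean under 50 and 0.16 for those above, so small differences were not detectable at this depth.

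**Figure D2:**
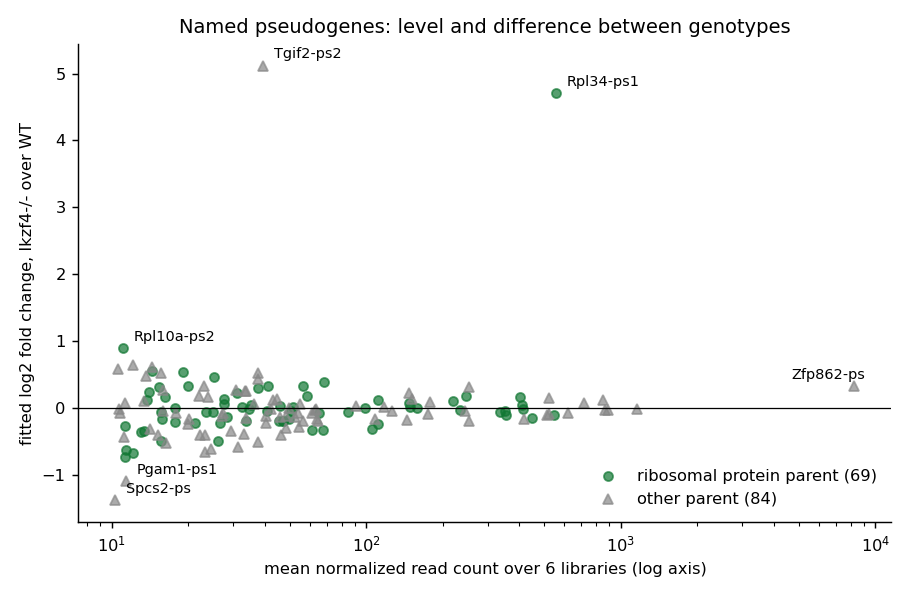
Mean normalized read count over 6 libraries (horizontal, log axis) against the fitted log2 fold change of Ikzf4-/- over WT (vertical) for the 153 members, as circles where the parent encodes a ribosomal protein (69) and triangles otherwise (84). Rpl34-ps1 and Tgif2-ps2 lie near 5, and the other 151 lie between -1.38 and 0.89.

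Lowest in adjusted p among the uncalled members were 2 of different kinds. Zfp862-ps, a transcribed unitary pseudogene on chromosome 6 (48504337 to 48534832) named for a zinc finger gene, was the most abundant member by far, with 5526, 8384 and 8327 normalized reads in WT and 8814, 9457 and 9170 in Ikzf4-/- libraries. WT replicate 1 was low and set most of the difference. The log2 fold change was 0.33 (SE 0.13, limma adjusted p = 0.209) and 0.13 without that library (adjusted p = 0.242). Pisd-ps1, a transcribed unprocessed pseudogene of the gene for a mitochondrial phosphatidylserine decarboxylase, had 229, 202 and 244 in WT and 267, 269 and 306 in Ikzf4-/- libraries. Its groups did not overlap, and its log2 fold change was 0.32 (limma adjusted p = 0.201), while its parent Pisd was at -0.08. Pisd-ps1 was chosen after its values were seen.

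The other abundant members barely differed. H2-T-ps, an unprocessed pseudogene of the class I region on chromosome 17, had 1055, 1248 and 1169 in WT and 1110, 1334 and 1020 in Ikzf4-/- libraries. Slfn10-ps, of the Schlafen family, had a mean of 899 ± 61.2 in WT and 875 ± 36.3 in Ikzf4-/- libraries (SD, n = 3 each). Tmem250-ps was at 871 ± 28.7 and 857 ± 24.1, and Ppp4r1l-ps at 696 ± 50.3 and 737 ± 66.9 (SD, n = 3 each). Tpt1-ps3, a copy of the mRNA for a translationally controlled tumour protein, had 817 ± 75.7 and 883 ± 46.7 (SD, n = 3 each). In each of these 5 the groups overlapped, and the lowest limma adjusted p was 0.525.

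Members at the ends of the range were mostly those with few reads. Below the called pair, the highest were Rpl10a-ps2 (log2 fold change 0.89, limma adjusted p = 0.614), Npm3-ps1 (0.65, 0.518), Slc22a13b-ps (0.62, 0.555) and Ccdc50-ps (0.59, 0.530), with means from 10.6 to 14.4 normalized reads. Rpl10a-ps2 ran from 1.06 to 17.5 in WT and from 5.23 to 27.1 in Ikzf4-/- libraries, a wide overlap. The lowest were Spcs2-ps (log2 fold change -1.38, limma adjusted p = 0.445), Pgam1-ps1 (-1.09, 0.235), Rpl17-ps8 (-0.73, 0.365), Rpl21-ps15 (-0.67, 0.550), Hnrnpa1l2-ps (-0.66, 0.422) and Rpl18-ps1 (-0.62, 0.5001). Spcs2-ps rested on Ikzf4-/- replicate 2, where it was listed at 0, against 9.04 to 14.6 in the other libraries. Pgam1-ps1 and Rpl17-ps8 were lower in each Ikzf4-/- library than in any WT library, at 4.02 to 10.1 against 12.6 to 18.1 and at 8.04 to 8.38 against 12.6 to 18.1.

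**Figure D3:**
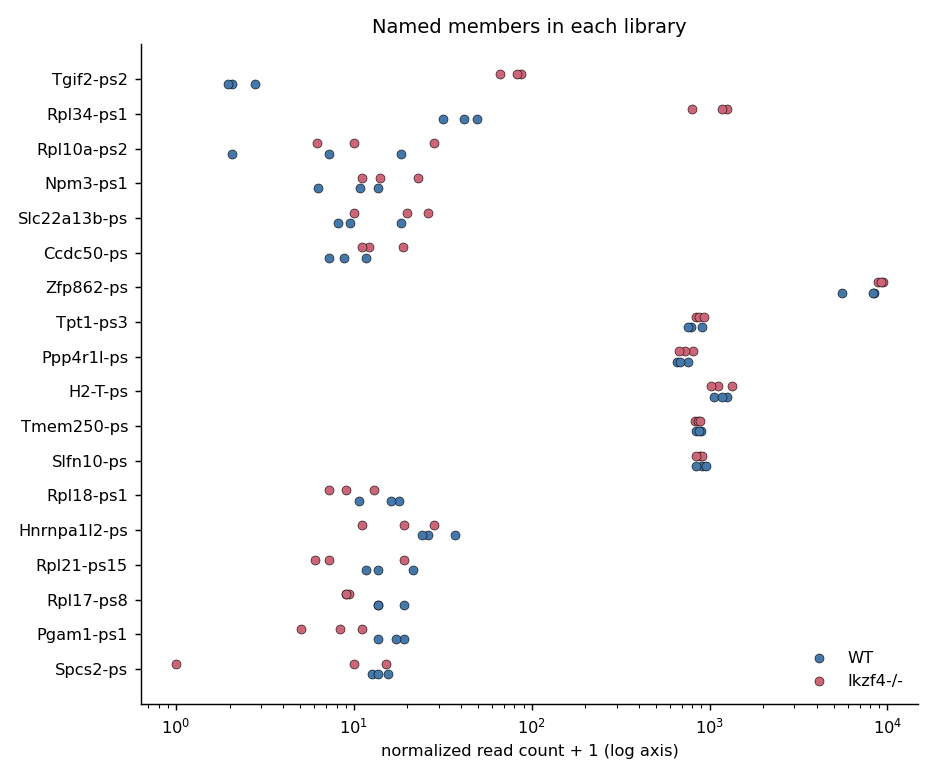
Normalized read count plus 1 (horizontal, log axis) in each of the 3 WT and 3 Ikzf4-/- libraries for the named members, ordered by fitted log2 fold change. Points are single libraries. Groups separate widely for Tgif2-ps2 and Rpl34-ps1, while members near 10 reads spread within each genotype.

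Members named for a ribosomal protein gene numbered 69, from 38 parents, with the class set by symbol alone. Apart from Rpl34-ps1 none was called, and with it 32 were above and 37 below zero, with a median log2 fold change of -0.04. The other 84 members, from 79 parents, had a median of -0.06, with 32 above and 52 below zero. The summed level of the ribosomal group was 6501 ± 215 in WT and 7479 ± 511 in Ikzf4-/- libraries (SD, n = 3 each). Rpl34-ps1 alone gained 1033. All members without Rpl34-ps1, Tgif2-ps2 and Zfp862-ps summed to 17489 ± 353 in WT and 17311 ± 683 in Ikzf4-/- libraries (SD, n = 3 each). Their share of a library was 0.0458% to 0.0489%, whereas the 86 ribosomal protein genes themselves took 7.18% to 7.72%. Of these 86 genes, 2 were called against a background of 1.77%, Rpl34 lower and Rpl39l higher (log2 fold change 1.28, limma adjusted p = 0.0480), the latter named after its value was seen. Rpl39l was called in 1 of 6 fits with a library left out, the one without WT replicate 3, with an adjusted p of up to 0.161 in the others.

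Where a parent had several copies, their fitted values were spread to different degrees. The 4 copies of Rps15a, of the small subunit, had log2 fold changes from -0.27 to 0.55, and the 4 of Rps19 from -0.49 to 0.47. The 4 copies of Rpsa, a laminin-binding protein of the small subunit, lay closer, from -0.19 to -0.02. The 3 of Rpl21 were at -0.67, -0.36 and -0.34 while Rpl21 itself was at -0.01. None of these members was called, and members of 1 parent share sequence, so they are not independent.

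Of the 153 members, 130 had a parent row, for 94 distinct parents, each of which was tested. Of these, 3 were lower in Ikzf4-/- cells (against a background of 1.2%) and 0 higher (against 0.572%), with 21 (22.3%) at an unadjusted p under 0.05 against 18.1% of all genes tested. The 3 were Rpl34, Ldha and Gpx4. The authors' deposited table had 8 parents lower and 0 higher at an adjusted p under 0.05, of 93 with a value (against 6.34% of all genes with one): these 3 and Bnip3l, Mrpl23, Rbpj, Rpl27 and Pgam1. With each library left out in turn, Ldha was called in 3 of 6 fits (adjusted p up to 0.0980, lost without WT replicate 2 or Ikzf4-/- replicate 1 or 3) and Gpx4 in 2 of 6 (up to 0.164, lost without WT replicate 2 or any Ikzf4-/- library). Ldha, the lactate dehydrogenase of glycolysis, had 151746, 143922 and 141024 in WT and 111346, 123208 and 106955 in Ikzf4-/- libraries (log2 fold change -0.36, limma adjusted p = 0.0246). Its copy Ldha-ps2 had 46.8, 36.8 and 29.1 in WT and 16.1, 32.5 and 27.1 in Ikzf4-/- libraries, which overlapped (log2 fold change -0.59, limma adjusted p = 0.396). The log2 ratio of Ldha-ps2 to Ldha differed by -0.23 between genotypes (exact permutation p = 0.7, two-sided).

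Gpx4, a glutathione peroxidase that reduces lipid peroxides, was at -0.31 on the log2 scale (limma adjusted p = 0.0474), and Gpx4-ps2 stood at -0.19 (0.457). Gpx4-ps2 had 270 ± 11.3 in WT and 237 ± 27.2 in Ikzf4-/- libraries (SD, n = 3 each). Its log2 ratio to Gpx4 differed by 0.12 (exact permutation p = 0.5, two-sided). Ldha-ps2 and Gpx4-ps2 were added after the calls of their parents were seen. Pgam1, a phosphoglycerate mutase of glycolysis, was at -0.22 (limma adjusted p = 0.126, and 0.0428 in the authors' deposited table) and was called without Ikzf4-/- replicate 2 (limma adjusted p = 0.0359), with Pgam1-ps1 at -1.09 and Pgam1-ps2 at -0.17.

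Over the 130 pairs, pseudogene and parent had the same sign in 79. The Spearman correlation of their log2 fold changes was 0.15, and 0.19 without the called pair of pseudogenes (n = 128). These are descriptions over pairs that share libraries and, in part, sequence. Among the named pairs, 11 were examined by the ratio within a library, and 2 more were added for the called parents. Rpl18-ps1 is paired with Rpl18 by its symbol only. It aligned to Rpl18 over 2.1% of its length, and 0.0% of its stretches of 50 bases occurred there, against 46.8% in other genes. The exact permutation p was 0.1 for Rpl34-ps1, Tgif2-ps2 and Rpl17-ps8 and 0.2 or more for the other 10, before any adjustment over the 13 pairs, and no pair could reach a lower value. Of the 11, all but Tpt1-ps3 were named for a call or an extreme fold change in these same libraries. A low p for their ratios is therefore no separate evidence.

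**Figure D4:**
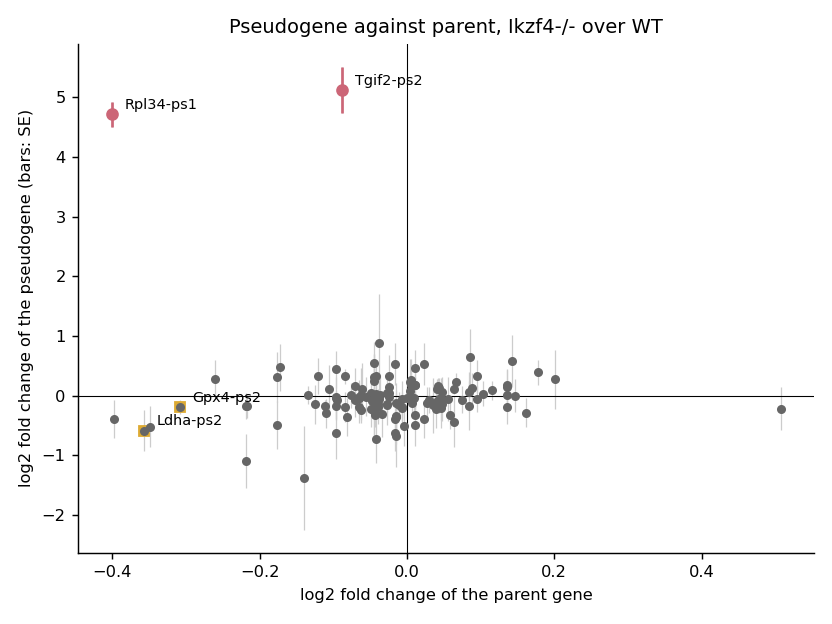
Fitted log2 fold change of the parent gene (horizontal) against that of its pseudogene (vertical, bars are the SE) for the 130 members with a parent row. Red points are the called pseudogenes, and squares mark uncalled members whose parent was called. Rpl34-ps1 is high where Rpl34 is the lowest parent, and Ldha-ps2 and Gpx4-ps2 lie below zero with their parents.

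Per kilobase of annotated exon, most members were a small fraction of the parent. The median was 1.32% of the parent's mean level per kilobase, and 57 members were under 1%. For members named for ribosomal protein genes the median was 0.694%, and for the others 2.56%. Bambi-ps1 was the 1 member above its parent, at 68.0 normalized reads per kilobase against 3.95 for Bambi, a decoy receptor of TGF-beta signalling. In WT libraries Rpl34-ps1 and Tgif2-ps2 were near the median of the 130 members with a parent row (1.28%), at 1.53% and 1.03% of the parent, while in Ikzf4-/- libraries they stood at 54.3% and 67.3%. These shares divide by all annotated exon bases, 2643 for Rpl34 against 354 for Rpl34-ps1 and 3832 for Tgif2 against 969 for Tgif2-ps2. They therefore lie far above the shares by normalized reads in Ikzf4-/- libraries, 7.38% and 17.1%. Ptges3-ps, a copy of the mRNA of an Hsp90 co-chaperone, stood at 48.1% over both genotypes and was not called (log2 fold change -0.08).

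Sequence copied elsewhere was common among the members, called or not. Of the stretches of 100 bases in a member, a median of 52.2% also occurred in a transcript of another annotated gene that does not overlap it. The share was above 90% for 33 members and zero for 12. Over the 126 members that aligned to a parent transcript over at least 50% of their length, the median identity was 99.3%, next to 99.44% for Rpl34-ps1 and 99.32% for Tgif2-ps2. The share copied was 98.4% for Rpl34-ps1 and 56.6% for Tgif2-ps2, the latter over its longest transcript and not all its annotated exon bases.

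Identity with the parent was complete, with no mismatch and no gap, for 20 members, and these still had 13.4 to 850 normalized reads, with Tpt1-ps3 the highest. Their log2 fold changes ran from -0.28 to 0.31, with a median of -0.0041, and 0 were called by limma or in the authors' deposited table, or had an unadjusted p under 0.05. Among them were Rps16-ps2, Rps6-ps4 and Rpl38-ps2, at means of 414, 408 and 402. Of the 33 members with over 90% of their stretches copied, 1 was called, and without Rpl34-ps1 the highest log2 fold change among them was 0.33. Of the 12 with none copied, such as Ppp4r1l-ps, Slc2a4rg-ps and Pisd-ps1, 0 were called. Across the 153 members, the Spearman correlation between the share copied and the level per kilobase was 0.40, and that with the size of the fold change was -0.11, as descriptions over genes that share libraries and families.

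**Figure D5:**
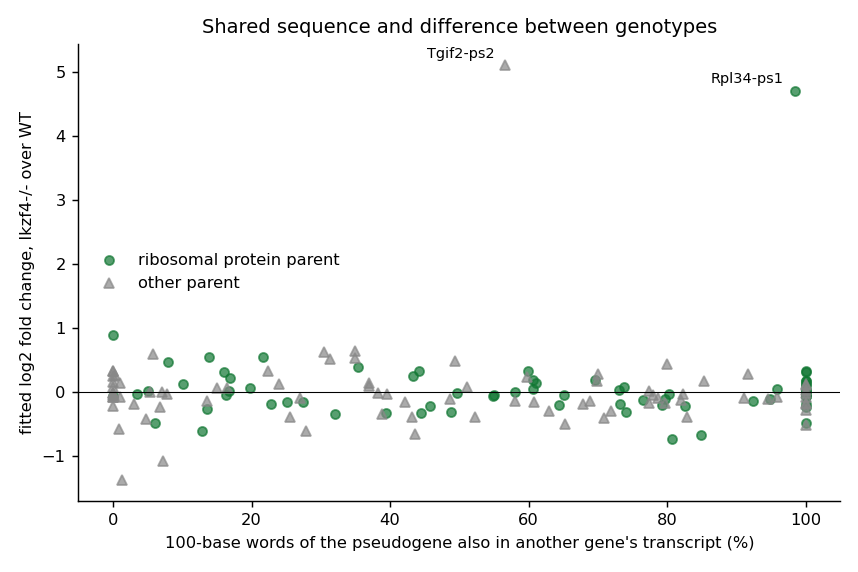
Share of the 100-base stretches of each member that also occur in a transcript of another gene (horizontal, percent) against the fitted log2 fold change of Ikzf4-/- over WT (vertical). Symbols divide members by whether the parent encodes a ribosomal protein. Rpl34-ps1 (98.4%) and Tgif2-ps2 (56.6%) lie near 5, and the other 151 members, over the whole range of shares, between -1.38 and 0.89.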

How the data were processed

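Trimmomatic 0.36, STAR 2.5.2b, DESeq2 and the builds GRCm38 and mm10 are named in the submitters' processing notes. The counting tool, its use of strand, its treatment of reads with several matches, the read length and the annotation are not given in the sources used here. The deposited table holds for each gene a never-negative signal per library, read as normalized read counts because 100% of values were whole multiples of 1 step per library (within 0.1 reads), along with the authors' log2 fold changes and the authors' p-values and adjusted p-values. In Ikzf4-/- replicates 1 and 3 the step was too close to 1 for reads to be accepted as recovered, so no count test was run.

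On the scale of log2(value + 1), genes whose mean reached 10 were fitted with genotype as the only term in limma 3.58.1 (R 4.3.3) with a variance trend, and p-values were adjusted by Benjamini-Hochberg over 14864 genes. Calls required an adjusted p under 0.05, and "rose", "fell" or "changed" refers to calls. Fold changes on this scale understate those of low genes. The procedure was tested on simulated data with changes planted only in genes with a mean of at least 50. That test therefore does not cover members below this level, Tgif2-ps2 among them.

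Ratios within libraries were compared by exact permutation tests. Positions and transcripts came from GENCODE M21 (GRCm38), in which 153 of 153 members matched by identifier and symbol. Each member's longest transcript was aligned locally to all transcripts of the parent symbol (Biopython 1.88; match 1, mismatch -2, gap opening -4, extension -1), and its exact stretches of 50, 100 and 150 bases were sought in all transcripts on both strands. Introns and intergenic sequence were not searched.

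The members and lists were chosen with earlier results of these data known. Named were called members, the 6 highest by level, the 6 highest and 6 lowest by fold change, members called in at least 2 alternatives or by the authors, their parents, called neighbours, and Ikzf4. Alternatives covered scaling, filters, pseudocounts, the replicate number as a block, each library left out, a threshold of 0.01 and the authors' deposited calls.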

Additional observations from a re-analysis of the deposited data

How the results depend on the processing

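Across the alternatives the members called were Rpl34-ps1 and Tgif2-ps2, and 0 were lower. With a minimum of 10 in every library, or a mean of at least 50, Tgif2-ps2 was not tested and 1 member was called. With a replicate block 2 members were called as before, although calls over all genes numbered 754 in place of 263. With single libraries left out, calls over all genes ran from 20 to 523. Deviations of same-numbered libraries from their group means correlated at 0.145, 0.0122 and 0.142, and those of differently numbered libraries at -0.163 to 0.0491. Numbers 1 and 3 thus gave the highest values, whereas WT replicate 2 did not correlate best with its own number. Shared numbers were not treated as pairs in the main fit, and a batch shared by number was not tested apart from the replicate block. The difference in the log2 ratio of Tgif2-ps2 to Tgif2 was 5.94 with a pseudocount of 0.1 and 3.04 with 10. The median share of copied stretches was 74.6% at 50 bases and 33.9% at 150. Uncalled log2 fold changes near zero changed sign: Rpl21 to 0.01 with quantile scaling (0.012) and with equal library totals (0.013), H2-T-ps to 0.018 and Tmem250-ps to 0.0035 with equal library totals. With single libraries left out, ranges crossed zero for Rpl10a (-0.072 to 0.0081), Rpl21 (-0.050 to 0.017), Tgif2 (-0.21 to 0.054), Rpl17 (-0.083 to 0.0078), Slfn10-ps (-0.091 to 0.0074) and H2-T-ps (-0.12 to 0.075).

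Depth limits most members: 60.1% had a mean under 50 normalized reads. Annotation covers transcripts only, so copies in introns or between genes were missed, and the word lengths stand in for a read length that is not given here. With 3 libraries against 3, exact permutation tests of ratios cannot give a p below 0.1.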

Other observations

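Annotated pseudogenes without a -ps symbol offer a comparison of the same kind of feature. Of 549 tested, 2 were called, both higher in Ikzf4-/- cells (against 0.572% of all genes tested), and 0 lower, while 43 (7.83%, against 18.1% of all genes tested) had an unadjusted p under 0.05. They were Gm7729, with a mean of 25.03 in WT and 215 in Ikzf4-/- libraries (log2 fold change 2.96, limma adjusted p = 0.00250), and Gm10033, with 106 and 168 (0.66, 0.0481). Gm7729 was called with any 1 library left out, and Gm10033 in 0 of 6 such fits (limma adjusted p from 0.0514 to 0.157). Their median log2 fold change was 0.02, and their median level 27.7 normalized reads.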
